A study of Mus musculus with 20 samples.

Results

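Malat1, Neat1, Kcnq1ot1, Pvt1, Dleu2, Mir17hg and Mir142hg are mouse genes whose long noncoding RNAs stay at or near chromatin, or carry microRNA hairpins that are cut from the transcript as it is made. They were listed by name, with earlier results of these data known, and each symbol was matched to its mouse Ensembl identifier in the deposited count table. The 7 genes were part of 56239 in that table, and 6 of the 7 had enough counts to be tested together with 16601 genes in all. Kcnq1ot1 had no counts in any library.

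The measurements came from B3, a pre-B cell line of the mouse transduced with a retrovirus for IKZF1-ERt2. This fusion of the transcription factor IKZF1 (Ikaros) to part of an oestrogen receptor is held in the cytoplasm until 4-hydroxytamoxifen (4-OHT) lets it enter the nucleus. Chromatin-associated RNA, which is rich in RNA still being transcribed, was sequenced from untreated cells (0 h) and after 0.5, 1, 2, 6, 12, 15, 18, 21 and 24 h in 500 nM 4-OHT, giving 20 libraries as 2 per time point over 10 time points. Every group carried the fusion, and untreated cells were the only control among these libraries, so the effect of IKZF1 in the nucleus and that of 4-OHT itself cannot be told apart.

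Library totals ran from 33296158 to 46868954 counts, with a median of 40943260. Replicates lay furthest apart at 12 h and 18 h, with a chi-square between the replicates of 9.95 and 14.9 for each degree of freedom, against 1.26 to 4.78 at the other times. The labels do not say whether replicates were separate cultures, so p-values measure the spread between these libraries, which may be technical. Of 11 pre-B markers, 8 reached 1 CPM (count per 1000000 of a library scaled by TMM, the edgeR factors for library composition) at 0 h, led by Ebf1 at 9793 CPM. Of 11 markers of other blood cells, 1 did (Csf1r, 1.19 CPM). Rag1 and Rag2 had 0 counts, and both lie wholly inside another gene, a position at which almost no gene was counted, as described for Kcnq1ot1 below. Counts of Ikzf1 may include RNA of the transduced fusion as well as of the cell's own gene. They gave 4845 and 4838 CPM at 0 h and 9227 and 8380.2 CPM at 24 h (log2 fold change 0.86 ± 0.04 SE). The fusion is switched on as a protein, so its RNA does not check the labels.

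As background, Malat1 RNA gathers in nuclear speckles, and Neat1 RNA is the scaffold on which paraspeckles form. Kcnq1ot1 is the antisense transcript of the imprinted Kcnq1 domain, and Pvt1 lies downstream of Myc, the gene of a transcription factor that drives growth. Dleu2, Mir17hg and Mir142hg are primary transcripts of the miR-15a/16-1 pair, the miR-17-92 cluster and miR-142, microRNAs known for their parts in B cell survival, lymphocyte growth and blood cell identity.

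The mature microRNAs were not measured here: only reads of the host transcripts were. Their sequences are shown because the seed, the stretch of bases 2 to 8 that pairs with target RNAs, sets which targets the products of a host transcript can pair with. All 10 were found in RefSeq (GRCm38.p6), and the seed is in capitals. Mir17hg holds 6 microRNA genes within its first part, starting 792 to 1548 bp from its annotated start, with these main products:
mmu-miR-17-5p: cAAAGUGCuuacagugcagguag
mmu-miR-20a-5p: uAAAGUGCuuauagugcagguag
mmu-miR-18a-5p: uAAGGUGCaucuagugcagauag
mmu-miR-19a-3p: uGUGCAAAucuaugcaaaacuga
mmu-miR-19b-3p: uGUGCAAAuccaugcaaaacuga
mmu-miR-92a-3p: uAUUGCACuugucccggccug
The miR-17 and miR-20a products share a seed, as do miR-19a and miR-19b.

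Dleu2 holds the hairpins of miR-15a and miR-16-1, which start 50263 and 50401 bp from its annotated start. Mir142hg holds miR-142, of which both arms are shown:
mmu-miR-15a-5p: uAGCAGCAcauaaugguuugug
mmu-miR-16-5p: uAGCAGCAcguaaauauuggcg
mmu-miR-142a-5p: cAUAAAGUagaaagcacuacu
mmu-miR-142a-3p: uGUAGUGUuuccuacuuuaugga
The miR-15a and miR-16 products share a seed, so that the 10 microRNAs carry 7 different seeds.

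How much of each gene could be counted depended on the other genes drawn on top of it. In this table, 6073 of 6079 genes (99.9%) that lie wholly inside a gene of the opposite strand had 0 counts in all 20 libraries, against 11185 of 30115 genes (37.1%) that overlap no other gene. Among protein-coding genes the shares were 99.3% and 18.4%. Reads that fall in 2 annotated genes were thus left out whatever their strand. The 10 microRNA genes inside the members had 0 counts for the same position, so no hairpin was counted apart from its host.

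Kcnq1ot1 (ENSMUSG00000101609, chr7:143203458-143296549 in GRCm38, minus strand) lies wholly inside Kcnq1 on the plus strand, and 100% of its length was overlapped. Its 0 counts in 20 of 20 libraries therefore carry no information on its RNA. Kcnq1, a potassium channel gene, was counted over its remaining length at 4.82 and 4.64 CPM at 0 h, 1.82 and 2.07 CPM at 6 h, and 3.28 and 3.58 CPM at 24 h. It was lower by 1.28 ± 0.15 (SE) on the log2 scale at 6 h (log2 fold change -1.28, adjusted p = 1.45e-07, edgeR). Of the 12 genes listed for the imprinted domain beside Kcnq1ot1, 6 were tested: at 24 h 2 rose and 4 fell, beside 35.4% and 36.1% of all genes tested. The oxysterol-binding protein gene Osbpl5 rose from 34.7 ± 1.35 (SD, n = 2) to 232 ± 4.23 CPM, while the tetraspanin gene Cd81 went from 66.2 ± 0.479 to 26.1 ± 1.10 CPM (both passed and over 2-fold, by the thresholds given below).

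**Figure D1:**
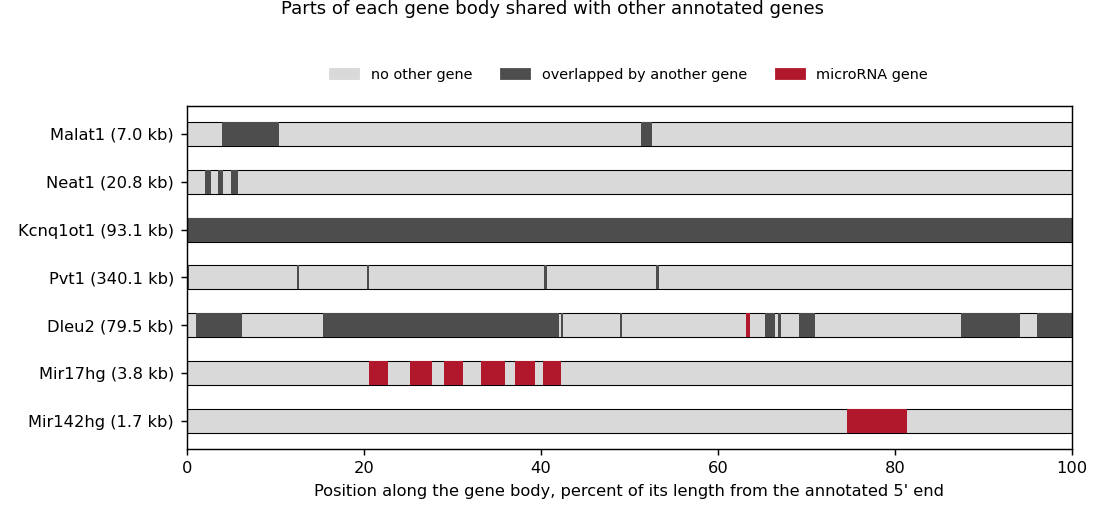
Each bar is the body of one of the 7 genes from its annotated 5′ end to its 3′ end, in percent of its length, with pale parts free of other genes, dark parts shared with another annotated gene and red parts holding microRNA genes. Kcnq1ot1 is covered over 100% of its length and Dleu2 over 46.0%, while Pvt1 is covered over 0.499%.

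The other genes kept most of their length. Pvt1 had 0.499% of its body overlapped, Neat1 1.85%, Mir142hg 6.79%, Malat1 7.72% and Mir17hg 13.9%. Dleu2 had 46.0% overlapped by 13 genes, 12 of them without counts in any library. Values for Dleu2 describe the remainder, which excludes its microRNA hairpins.

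Levels between genes were compared per kilobase of body that no other gene overlaps. At 0 h, Malat1 stood highest at 544 ± 3.15 CPM per kb (SD, n = 2), followed by Mir142hg at 46.5 ± 0.138, Mir17hg at 37.8 ± 1.23, Neat1 at 23.8 ± 0.00165, Dleu2 at 10.4 ± 0.182 and Pvt1 at 2.98 ± 0.0351. At 24 h the order was Malat1 at 2171 ± 45.2 CPM per kb, Neat1 at 84.5 ± 1.23, Mir142hg at 32.5 ± 0.762, Dleu2 at 13.7 ± 0.119, Mir17hg at 4.14 ± 0.404 and Pvt1 at 0.601 ± 0.0232. Mir17hg thus went from above Neat1 and Dleu2 to below both. Pvt1, spread over 340111 bp, was lowest per kilobase at both times although its CPM at 0 h was second to that of Malat1.

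Over the time course, the 6 counted genes split into risers, fallers and a pair with small changes. A gene passed when its Benjamini-Hochberg adjusted p over all 16601 genes was under 0.01 (edgeR quasi-likelihood test), and it was called when it also changed over 2-fold. Malat1 and Neat1 rose, Pvt1 and Mir17hg fell, and Dleu2 and Mir142hg passed without reaching 2-fold at any time. The 4 of 6 called at some time compare with 51.9% of all genes tested, and the 6 of 6 that passed the test over all times compare with 88%, so the share that changed was not far from that of all genes. Without the 12 h and 18 h libraries, an alternative chosen after the data were seen, the same number, 4 of 6, was called.

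**Figure D2:**
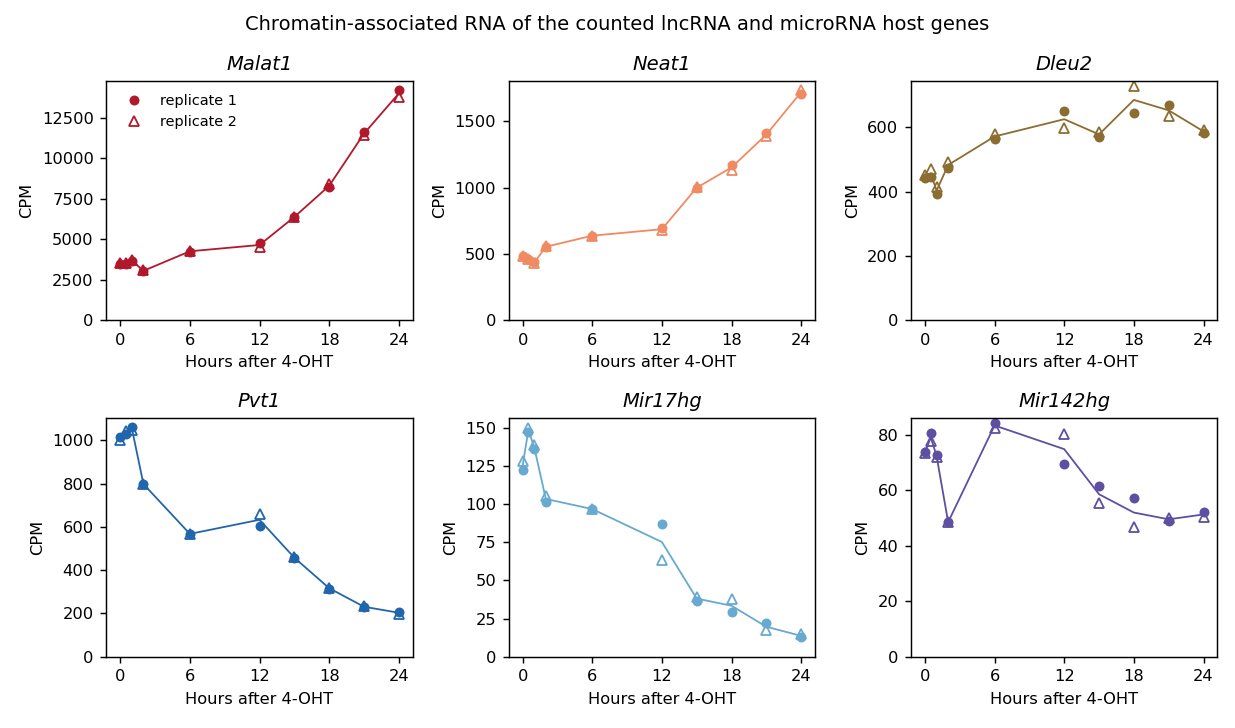
CPM on a linear axis from 0 against hours in 4-OHT for the 6 counted genes, with filled circles for replicate 1, open triangles for replicate 2 and a line through the mean. Malat1 ends at 14195 and 13782 CPM after starting at 3492 and 3520.5, and Mir17hg ends at 12.8 and 14.7 after starting at 122 and 128.

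Malat1 (ENSMUSG00000092341, chr19:5795690-5802672, minus strand) gave 3492 and 3520.5 CPM at 0 h, 3491 and 3539 (0.5 h), 3637 and 3709 (1 h), and 3009 and 3072 (2 h). It then gave 4231 and 4262 CPM at 6 h, 4771 and 4499.5 (12 h), 6383 and 6349 (15 h), 8192 and 8378 (18 h), 11624 and 11397 (21 h), and 14195 and 13782 (24 h). Both 2 h libraries lay below all others, and from 6 h on each time point lay above the one before without overlap. Only 0 h and 0.5 h overlapped among neighbours in the order of levels. Against 0 h, the log2 fold change was -0.21 ± 0.03 (SE) at 2 h (adjusted p = 5.23e-06, edgeR), 0.86 ± 0.03 at 15 h and 2.00 ± 0.03 at 24 h (adjusted p = 1.14e-22, edgeR), a 3.99-fold rise. The early fall was followed by a rise of 0.48 ± 0.03 on the log2 scale from 2 h to 6 h (adjusted p = 4.86e-11, edgeR).

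The share of all counts that Malat1 took went from 0.366% and 0.368% at 0 h, rank 9 of all genes in both libraries, to 1.25% and 1.20% at 24 h, rank 2 in both. Of the genes tested, 1549 had a higher log2 fold change at 24 h than Malat1.

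Neat1 (ENSMUSG00000092274, chr19:5824708-5845478, minus strand), the neighbour of Malat1, gave 486 and 486 CPM at 0 h, 461 and 464 (0.5 h), 437 and 431 (1 h), and 551 and 556 (2 h). The later values were 638 and 637 CPM at 6 h, 694 and 679 (12 h), 997 and 1002 (15 h), 1174 and 1133 (18 h), 1413 and 1389 (21 h), and 1705 and 1740.2 (24 h). No neighbours in the order of levels overlapped: the 1 h libraries were lowest, and every time point from 2 h on lay above all earlier ones. The log2 fold change was -0.16 ± 0.03 at 1 h (adjusted p = 9.63e-05, edgeR), 0.19 ± 0.03 at 2 h (adjusted p = 1.14e-05, edgeR) and 1.83 ± 0.03 at 24 h (adjusted p = 2.47e-22, edgeR), a 3.55-fold rise. By counts Neat1 moved from rank 259 and 263 (0 h) to rank 56 and 59 (24 h).

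Malat1 and Neat1 therefore moved in opposite directions between 1 h and 2 h and together afterwards. From 1 h to 2 h Malat1 fell by 0.27 ± 0.03 (SE) on the log2 scale (adjusted p = 5.84e-07, edgeR) and Neat1 rose by 0.35 ± 0.03 (adjusted p = 1.09e-08, edgeR). Within each library, the ratio of Neat1 to Malat1 counts was 0.120 and 0.116 (1 h), 0.183 and 0.181 (2 h), 0.151 and 0.149 (6 h), and 0.120 and 0.126 (24 h), after 0.139 and 0.138 (0 h). The 2 h ratios were the highest of all 20 libraries. Such a ratio does not depend on how libraries are scaled.

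Pvt1 (ENSMUSG00000097039, chr15:62037986-62378096, plus strand) gave 1017 and 1000.3 CPM at 0 h, 1028 and 1042 (0.5 h), 1061 and 1049 (1 h), and 798 and 797 (2 h). It went on to 567 and 568 CPM at 6 h, 605 and 661 (12 h), 456 and 459 (15 h), 314 and 319.8 (18 h), 228 and 234 (21 h), and 209 and 198 (24 h). The libraries of the first 3 time points were highest, those of 24 h lowest, and no neighbours in the order of levels overlapped. The log2 fold change was -0.34 ± 0.04 at 2 h (adjusted p = 7.30e-08, edgeR), -0.83 ± 0.04 at 6 h and -2.31 ± 0.04 at 24 h (adjusted p = 3.99e-22, edgeR), a 4.96-fold fall. The fall paused between 6 h and 12 h, where Pvt1 rose by 0.16 ± 0.04 on the log2 scale (adjusted p = 0.00189, edgeR). The 12 h libraries were far apart, so the size of this rise is uncertain. Leaving out single libraries put the 12 h value against 0 h anywhere from -0.74 to -0.61, still above that at 6 h.

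Mir17hg (ENSMUSG00000089726, chr14:115042879-115046727, plus strand) gave 122 and 128 CPM at 0 h, 147 and 149.8 (0.5 h), 136 and 139 (1 h), 101 and 105 (2 h), and 96.9 and 96.6 (6 h). It gave 86.8 and 63.6 CPM at 12 h, 36.8 and 39.5 (15 h), 29.2 and 37.7 (18 h), 21.8 and 17.5 (21 h), and 12.8 and 14.7 (24 h). The 0.5 h and 1 h libraries lay above those of 0 h, but the 0.5 h difference of 0.25 ± 0.10 on the log2 scale did not pass (adjusted p = 0.112, edgeR). Every library from 2 h on lay below both 0 h libraries. The log2 fold change was -0.74 ± 0.10 at 12 h, where the replicates were far apart, -1.71 ± 0.11 at 15 h and -3.19 ± 0.12 at 24 h (adjusted p = 6.60e-16, edgeR), a 9.10-fold fall. At 6 h the value of -0.37 ± 0.10 passed with an adjusted p of 0.00299 (edgeR), but not when any 1 of the 4 libraries compared was left out (adjusted p 0.0104 to 0.0293) or in DESeq2 (adjusted p = 0.0171).

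Of the 6 genes, Mir17hg changed most by 24 h: 464 of the 16601 genes had a lower log2 fold change there, against 1066 for Pvt1. From 12 h to 15 h its log2 change was -0.98 ± 0.11 (adjusted p = 9.95e-07, edgeR), but the 12 h libraries were far apart, and leaving out single libraries put the 12 h value against 0 h anywhere from -0.98 to -0.53. The counts behind its values ran from 428 to 6721 reads per library.

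Dleu2 (ENSMUSG00000097589, chr14:61602839-61682373, minus strand) gave 442 and 453 CPM at 0 h, 445 and 470.4 (0.5 h), 393 and 413 (1 h), 474 and 492 (2 h), and 564 and 579.5 (6 h). The later values were 653 and 599 CPM at 12 h, 572 and 585 (15 h), 644 and 728 (18 h), 672 and 635 (21 h), and 584 and 591 (24 h). All libraries from 6 h on lay above all earlier ones, but 5 of the 9 neighbour pairs in the order of levels overlapped, so the order within the late group is not resolved. The log2 fold change passed from 6 h on, with 0.35 ± 0.05 at 6 h (adjusted p = 2.36e-06, edgeR), 0.62 ± 0.05 at 18 h and 0.39 ± 0.05 at 24 h (adjusted p = 3.37e-07, edgeR), a 1.31-fold rise.

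Mir142hg (ENSMUSG00000084796, chr11:87755577-87757270, plus strand) gave 73.7 and 73.3 CPM at 0 h, 80.4 and 77.6 (0.5 h), 72.7 and 72.0 (1 h), 48.5 and 48.4 (2 h), and 84.2 and 82.4 (6 h). It gave 69.2 and 80.3 CPM at 12 h, 61.5 and 55.5 (15 h), 57.3 and 46.6 (18 h), 48.9 and 50.1 (21 h), and 52.1 and 50.4 (24 h). It thus dipped at 2 h, was at its highest at 6 h and returned to about the level of the dip by 21 h. The log2 fold change against 0 h was -0.60 ± 0.07 at 2 h (adjusted p = 3.86e-07, edgeR), 0.18 ± 0.07 at 6 h, which did not pass (adjusted p = 0.0292, edgeR), and -0.52 ± 0.07 at 24 h (adjusted p = 1.41e-06, edgeR). The rise from 2 h to 6 h was 0.78 ± 0.07 on the log2 scale (adjusted p = 2.07e-08, edgeR). At 15 h the value of -0.33 ± 0.07 passed (adjusted p = 0.000343, edgeR), but not without the second 15 h library (adjusted p = 0.0116).

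**Figure D3:**
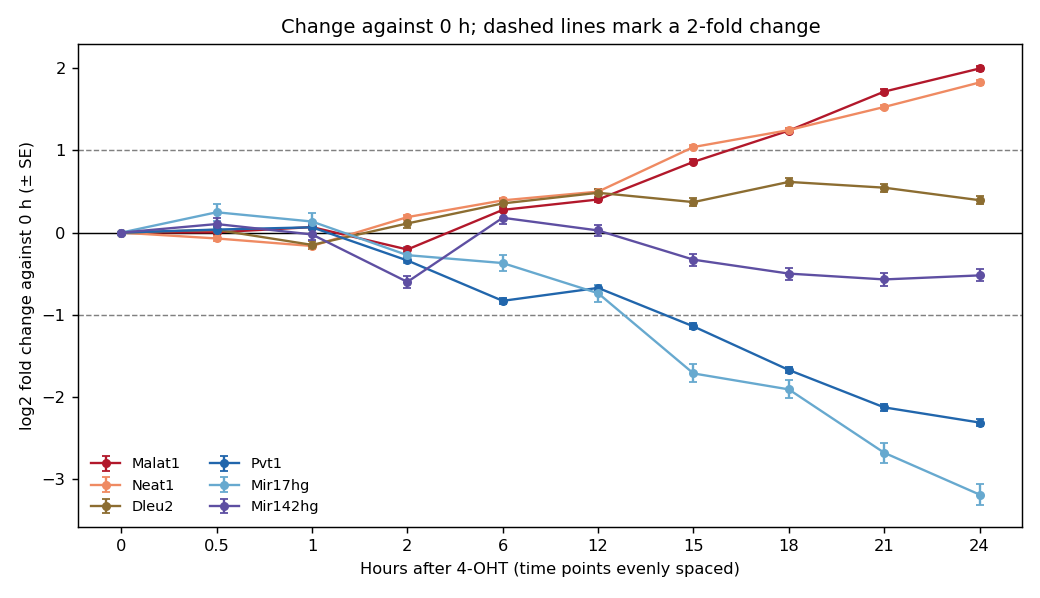
Log2 fold change against 0 h with its SE for the 6 counted genes at the 9 induced time points, drawn at even spacing, with dashed lines at a 2-fold change. Malat1 and Neat1 end at 2.00 and 1.83, Dleu2 at 0.39, Mir142hg at -0.52, Pvt1 at -2.31 and Mir17hg at -3.19.

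Taking the time points in turn, none of the 6 genes passed at 0.5 h (edgeR), when 8.44% of all genes did. At an unadjusted p under 0.05 there were 2, and DESeq2 passed 0. At least the same 8.44% of all genes met this looser threshold, but their full share was not computed. At 1 h Neat1 alone passed, downward, beside 36.3% of all genes. At 2 h, 4 passed, Neat1 upward and Malat1, Pvt1 and Mir142hg downward, beside 47.7% of all genes (23.9% upward and 23.8% downward). None was called, beside 13.2%, and DESeq2 called 0 as well. All 6 had an unadjusted p under 0.05. At least the same 47.7% of all genes met this looser threshold. Their full share was not computed, so the count of 6 cannot be set against it. At 24 h all 6 passed, 3 in each direction, beside 71.5% of all genes, and 4 were called beside 40.1%, 2 upward beside 20% of all genes and 2 downward beside 20.1%. The members are abundant, and of the 3293 genes with a mean level at least that of Mir142hg (64.3 CPM), 68.7% passed and 6.62% were called at 2 h, and 88.1% passed and 31.5% were called at 24 h. Over the 6 genes, the 24 h log2 fold change had a median of -0.06, and that of all genes was -0.01.

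The step from 1 h to 2 h was the only one between consecutive time points at which all 6 genes passed, which was seen after the values were known. Pvt1 fell by 0.40 ± 0.04 (SE), Mir17hg by 0.41 ± 0.10 and Mir142hg by 0.58 ± 0.07 on the log2 scale, and Dleu2 rose by 0.26 ± 0.05, beside the changes in Malat1 and Neat1 given above. Of all genes, 22.3% passed at this step, and of the 3293 genes at least as abundant as Mir142hg, 32.4% did. Over the 8 steps from 0.5 h on and 6 genes, 32 of 48 tests passed, beside 23.2% of the tests over all genes. The share among genes as abundant as the members was not computed for this count, and at the step from 1 h to 2 h it was the higher one. The step from 0 h to 0.5 h, at which none passed, is left out of this count.

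**Figure D4:**
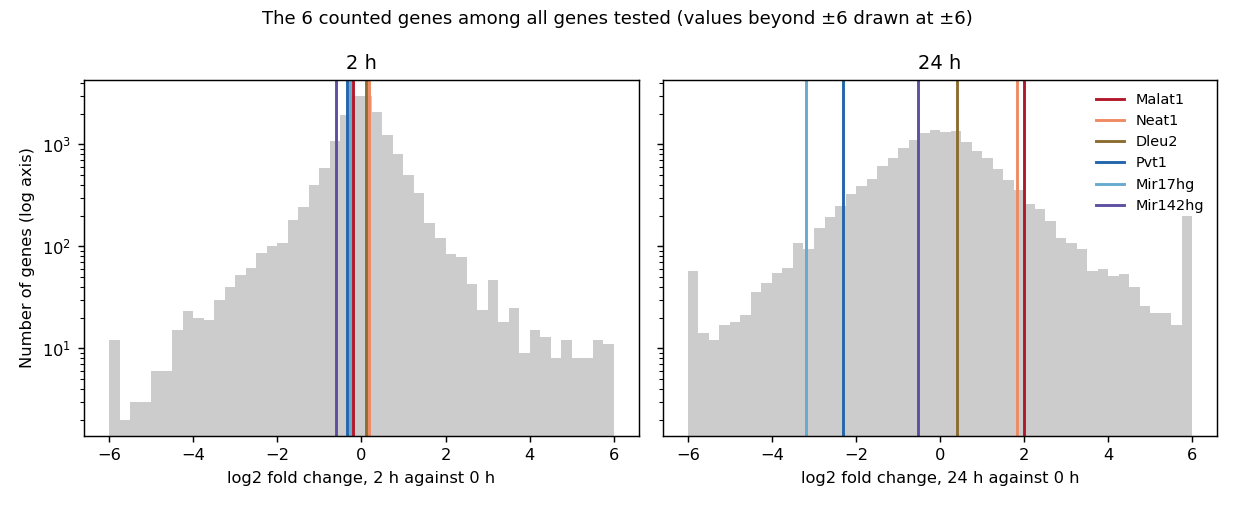
The number of genes, on a log axis, in bins of log2 fold change at 2 h (left) and 24 h (right) for all 16601 genes tested, with the 6 counted genes as vertical lines. At 2 h all 6 lie between -0.60 and 0.19, while at 24 h Mir17hg and Pvt1 lie at -3.19 and -2.31 and Malat1 and Neat1 at 2.00 and 1.83.

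Myc is the nearest coding gene upstream of Pvt1 and was the only 1 of its 7 neighbours within 200 kb to be tested. It gave 63.6 and 62.2 CPM at 0 h, 30.6 and 29.6 (0.5 h), 31.3 and 29.2 (1 h), 27.6 and 26.7 (2 h), and 34.0 and 30.7 (6 h). It then gave 22.3 and 28.2 CPM at 12 h, 18.1 and 19 (15 h), 12.4 and 9.64 (18 h), 6.14 and 6.60 (21 h), and 5.55 and 4.40 (24 h). Myc was thus down at 0.5 h (log2 fold change -1.06 ± 0.09, adjusted p = 3.11e-08, edgeR), while the Pvt1 value was 0.04 ± 0.04 (adjusted p = 0.597) and that of Mir17hg was 0.25 ± 0.10. By 24 h all 3 were low, with Myc at -3.67 ± 0.12 (adjusted p = 1.54e-17, edgeR).

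Within each library, the ratio of Pvt1 to Myc counts was 16.0 and 16.1 (0 h), 33.6 and 35.2 (0.5 h), 33.9 and 35.9 (1 h), 16.7 and 18.5 (6 h), and 37.7 and 45 (24 h). The ratio of Mir17hg to Myc was 1.92 and 2.06 (0 h), 4.81 and 5.06 (0.5 h), 2.04 and 2.07 (15 h), and 2.30 and 3.33 (24 h). Both ratios were higher at 0.5 h than at 0 h in both libraries, and both came back near their starting values, that of Pvt1 at 6 h and that of Mir17hg at 15 h. At 12 h and 18 h the replicates of Mir17hg to Myc spread too widely to rank, at 3.89 and 2.26 and at 2.35 and 3.91.

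**Figure D5:**
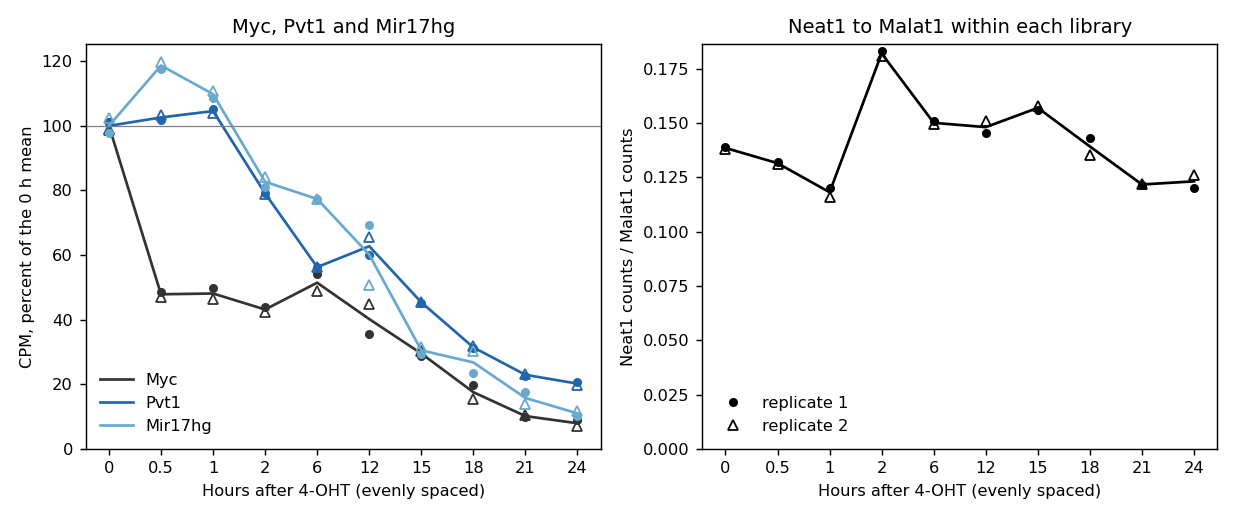
Left, CPM of Myc, Pvt1 and Mir17hg in percent of each gene's 0 h mean, and right, the ratio of Neat1 to Malat1 counts, both by hours in 4-OHT at even spacing, with circles for replicate 1 and triangles for replicate 2. At 0.5 h Myc stands at 47.8% of its 0 h level in the fit against 103% for Pvt1 and 119% for Mir17hg, and the Neat1 to Malat1 ratio peaks at 2 h at 0.183 and 0.181.

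The time at which each of the 4 called genes had reached the midpoint of its log2 change to 24 h, read from straight lines between time points, was 14.3 h for Neat1, 14.6 h for Mir17hg, 15.1 h for Pvt1 and 16.1 h for Malat1. Taken from each replicate number alone, the values were 14.2 and 14.3 h for Neat1, 14.8 and 14.4 h for Mir17hg, 14.9 and 15.3 h for Pvt1, and 16.2 and 16.0 h for Malat1. On the linear scale of CPM the Pvt1 value was 5.33 h and the Malat1 value 18.4 h, so the order of the genes depends on the scale. Libraries are bulk, so fewer cells that make an RNA and less RNA per cell cannot be told apart in any of these values.

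Where genes resembled the members over the 20 libraries, likeness was measured as Pearson's r of log2 CPM over 12055 genes of at least 1 mean CPM, as a description of libraries that share time points and replicate spread. Malat1 was most like Dgkd (r = 0.995), Scarb2 and Slc6a19, and Neat1 was most like Ypel1 (r = 0.993), Kcnh1 and Gpatch8. Pvt1 was most like Tent4a (r = 0.995), Tfap4 and Sapcd2, and Mir17hg was most like Hnrnpu (r = 0.995), Wdr75 and Thap12. For these genes such likeness was common, with r of at least 0.9 for 1101 genes with Malat1, 1585 with Neat1, 1905 with Pvt1 and 1752 with Mir17hg.

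Dleu2 was most like Lrif1 (r = 0.986), Gm44148 and Chd2, with 492 genes at r of at least 0.9. Mir142hg had 3 such genes, Pnn (r = 0.934), Ube2m and Elovl1. All 3 were lower at 2 h, with log2 fold changes of -1.17, -0.78 and -0.70. They were picked for likeness to a profile that dips at 2 h, so these values are no separate result. Pnn encodes pinin, a protein of nuclear speckles. Between members, r was 0.970 for Malat1 with Neat1, 0.972 for Pvt1 with Mir17hg and -0.989 for Neat1 with Mir17hg.

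Genes within 200 kb of the members moved in both directions. Of 106 such genes in the table that are not members, 38 were tested, and at 24 h 10 rose and 18 fell, beside 35.4% and 36.1% of all genes. Among the 38, 7 were called in each direction, beside 20% upward and 20.1% downward of all genes, with a median log2 fold change of -0.25 against -0.01 for all genes. Around Malat1 and Neat1, whose neighbourhoods share most genes, the potassium channel gene Kcnk7 went from 7.55 ± 0.200 to 2.18 ± 0.337 CPM (SD, n = 2). The calpain gene Capn1, within 200 kb of Neat1 but not of Malat1, went from 14.2 ± 0.301 to 48.1 ± 2.56 CPM. Near Malat1, the largest rise among called genes of at least 1 mean CPM was that of Frmd8os, from 1.27 ± 0.0721 to 2.59 ± 0.433 CPM. Of the 18 genes tested near Malat1, 3 rose and 12 fell, beside the same 35.4% and 36.1% of all genes.

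Near Mir142hg, 8 genes were tested, of which 3 rose and 3 fell at 24 h. Tspoap1 was lowest against its start, at 9.03 ± 0.260 CPM after 35.1 ± 1.44 CPM. Sept4 was highest against its start, at 1.57 ± 0.185 CPM after 0.771 ± 0.0398 CPM. At 2 h, when Mir142hg dipped, 4 of the 8 rose (edgeR), beside 23.9% of all genes, and 4 did not pass. The log2 fold changes of all 8 were above 0, beside a median of 0.03 over all genes. They ran from 0.04 for Rnf43 to 1.26 for Epx, neither of which passed, and Epx averaged only 0.155 CPM. Near Mir17hg, the log2 fold changes of the 3 tested genes at 24 h ran from -0.16 for Gpc5 to 0.92 for 1700100I10Rik, and none of the 3 passed. Trim13, a ubiquitin ligase gene that partly overlaps Dleu2, gave 1.21 and 1.13 CPM at 0 h, 3.52 and 3.26 (2 h), and 2.39 and 3.01 (24 h), with a log2 fold change of 1.53 ± 0.15 at 2 h (adjusted p = 1.60e-08, edgeR).

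Promoter sequences, windows of 300 bases around the annotated start, were at hand for 4 of the 7 genes. Not all of these are shown, and neither of the fallers Pvt1 and Mir17hg is among the windows below. The windows of Malat1, the most abundant riser, and Dleu2, which changed little, are shown with GGGAA, the core of the sites that Ikaros proteins bind, searched on both strands (TTCCC on the other) and set in capitals where found. They come from RefSeq (GRCm38.p6), at chr19:5802623-5802922 and chr14:61682324-61682623, both on the minus strand:
Malat1 promoter: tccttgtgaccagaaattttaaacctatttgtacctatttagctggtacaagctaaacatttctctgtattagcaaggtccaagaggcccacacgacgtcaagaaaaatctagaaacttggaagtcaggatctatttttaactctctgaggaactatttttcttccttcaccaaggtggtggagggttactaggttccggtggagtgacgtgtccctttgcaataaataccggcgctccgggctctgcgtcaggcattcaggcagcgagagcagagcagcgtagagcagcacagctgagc
Dleu2 promoter: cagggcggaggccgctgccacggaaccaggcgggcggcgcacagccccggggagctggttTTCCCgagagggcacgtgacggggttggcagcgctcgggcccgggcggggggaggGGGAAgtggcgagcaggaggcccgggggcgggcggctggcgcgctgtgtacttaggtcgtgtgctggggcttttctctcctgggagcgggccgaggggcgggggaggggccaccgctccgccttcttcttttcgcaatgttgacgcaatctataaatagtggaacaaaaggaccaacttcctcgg
Malat1 had 0 matches to GGGAA on either strand and Dleu2 had 2. Of 32851 RefSeq promoters of this length, 62.7% held at least 1 match and 27.1% at least 2, so neither count is unusual. The search was narrower than that of the paper, which counted GGAA and GGGA on either strand. Both of these shorter motifs occur in the Malat1 window. These letters say nothing of where IKZF1 was bound.

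Other microRNA host genes showed both directions. Of 23 listed noncoding hosts, 13 were in the table and 3 had enough counts: at 24 h Lncpint went from 433 ± 1.85 to 2198 ± 27.3 CPM (log2 fold change 2.34 ± 0.04, adjusted p = 9.17e-23, edgeR), Ftx rose by 1.02 ± 0.05 on the log2 scale, and Mir155hg, the host of miR-155, stayed at -0.15 ± 0.07 and did not pass. Of 28 protein-coding hosts, 26 were tested, with 9 up and 10 down at 24 h, beside 35.4% and 36.1% of all genes, and 5 and 2 called, beside 20% and 20.1%. Ppargc1b, the host of miR-378 and a coactivator of mitochondrial genes, went from 251 ± 0.479 to 4.02 ± 0.335 CPM, and the dynamin gene Dnm3 from 7.50 ± 0.220 to 28.6 ± 0.577 CPM.

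Genes that act on microRNAs also divided. Of 22 tested genes of microRNA processing and silencing, 4 rose and 9 fell at 2 h, beside 23.9% and 23.8% of all genes. At 24 h 11 rose and 8 fell, beside 35.4% and 36.1%, and 5 and 2 were called, beside 20% and 20.1%. The Argonaute gene Ago4 went from 11.4 ± 0.850 to 59.0 ± 1.84 CPM, and Ran, whose product drives export of precursor microRNAs by exportin, from 39.7 ± 1.35 to 10.0 ± 0.0846 CPM. Dgcr8, the partner of Drosha in cutting primary transcripts, was among those that fell, by 1.88 on the log2 scale.

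Protein genes of paraspeckles and nuclear speckles went mostly the other way from Neat1 and Malat1. Of 20 tested, 4 rose and 14 fell at 24 h, with a median log2 fold change of -0.46 against -0.01 for all genes, beside 35.4% of all genes that rose and 36.1% that fell. Most of the 20 are abundant, and of the 3293 genes at least as abundant as Mir142hg, 88.1% passed at 24 h. How those divide into rises and falls was not computed. Only 2 fell over 2-fold, beside 20.1% of all genes: the splicing factor gene Srsf7 went from 196 ± 5.00 to 75.7 ± 1.05 CPM, and Pnn fell by 1.06 on the log2 scale. At 2 h, 3 rose and 8 fell, beside 23.9% and 23.8% of all genes.

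Of 26 other nuclear or regulatory noncoding genes listed, 11 were tested and 6 were called at 24 h, 4 upward and 2 downward, beside 40.1% of all genes (20% upward and 20.1% downward). Jpx, an activator of Xist, went from 35.5 ± 0.0673 to 171 ± 3.82 CPM, and Dancr went from 10.8 ± 0.197 to 1.37 ± 0.131 CPM. At 2 h, 0 rose and 4 fell, beside 23.9% and 23.8% of all genes, and 1 was called, beside 13.2%. The called gene was Firre, at 145 and 147 CPM (0 h), 55.6 and 55.4 (2 h), and 197 and 193 (24 h). Xist itself lies inside another gene in the annotation and had 0 counts. Of the 13 listed genes that were not tested, 3 were in that position and had 0 counts throughout.

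The scale of the libraries matters for the size of these values. With library totals in place of TMM factors, the median gene moved by -0.12 at 18 h, -0.23 at 21 h and -0.26 at 24 h on the log2 scale, and the called genes at 24 h split into 2603 up and 4260 down in place of 3323 and 3329. Malat1 then stood at 1.74, Neat1 at 1.57, Pvt1 at -2.57, Mir17hg at -3.45, Dleu2 at 0.14 and Mir142hg at -0.78 on the log2 scale at 24 h. All 6 kept their direction, and the same 4 were over 2-fold.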

How the data were processed

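Chromatin-associated RNA was measured in 20 libraries of B3 cells. Per the labels and the study's methods, the authors aligned reads to GRCm38 (mm10) with STAR in nf-core/rnaseq and deposited whole-number counts per gene from featureCounts, intronic reads included. CASAVA 2.17 is named in the submitters' processing notes. The annotation release, strand setting and treatment of shared reads are not given in the sources used here; positions were taken from GENCODE M21.

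Counts were fitted with edgeR 4.0.16 in R 4.3.3 (TMM factors 0.870 to 1.06, quasi-likelihood test, time as a factor, all libraries) over 16601 genes with at least 10 counts in 2 libraries, with Benjamini-Hochberg adjustment over all of them. Passing meant an adjusted p under 0.01, and calling also a fold above 2. A prior count of 2 was used for log2 CPM. The script was tested on simulated data. Alternatives were DESeq2 1.42.0, other scalings and filters, the replicate block and leaving out each library. No column of the table was left unused. Same-numbered replicates did not deviate together on average (mean correlation 0.0195), so no block was used, although single pairs of time points ran from -0.625 to 0.418.

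The members and lists were chosen with earlier results of these data known. Named genes were the members, Myc, Ikzf1 and the 3 genes most like each member. From each list came the called genes of at least 1 mean CPM with the largest rise and fall at 24 h. Ftx, Mir155hg, Pnn, Dgcr8, Kcnq1, Rnf43, Epx, Gpc5, 1700100I10Rik, Firre and Xist were named after their values were seen.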

Additional observations from a re-analysis of the deposited data

How the results depend on the processing

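The number of the 6 counted genes called was 4 over the time course and 4 at 24 h under every scaling, filter, tool and left-out library tried, and 4 also with a replicate block. With a fold above 1.5 in place of 2 it was 6 over the time course, Dleu2 and Mir142hg included. The block was tried although same-numbered replicates did not pair on average (mean correlation of their deviations 0.0195 over 45 pairs, from -0.625 to 0.418, with 16 over 0.1). The replicate block left 32 of 48 steps between time points from 0.5 h on passing, as without it, and changed no call among the members. At 2 h, 1 gene (Mir142hg) was called with a fold above 1.5, against 0. Of 648 single values tried, 623 kept direction and side of the threshold, 12 came to pass, 6 no longer passed and 7 changed sign. Those that changed sign were small: Malat1 at 0.5 h, 0.0037 on the log2 scale, was -0.012 with no filter, -0.0018 with at least 10 counts in every library and -0.0087 with only the 4 libraries compared, and -0.0061 to 0.014 without single libraries; leaving out libraries gave -0.0080 to 0.073 for Dleu2 at 0.5 h and -0.086 to 0.13 for Mir142hg at 12 h. With library totals, the calls at 24 h were 1 in place of 2 among other microRNA host lncRNAs, 6 in place of 2 among paraspeckle and speckle proteins, and 0 in place of 1 among overlapping genes, where all values moved by the shift of the median gene. Protein-coding hosts called at 2 h were 1 in place of 2 with at least 10 counts in every library and in DESeq2. The half-maximal times with library totals were 15.6 h for Malat1, 13.7 h for Neat1, 15.5 h for Pvt1 and 14.9 h for Mir17hg, and on the linear CPM scale 18.4, 17, 5.33 and 12.5 h.

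With 2 libraries per time point, sampled at 10 times, half-maximal times rest on straight lines between points 3 h or more apart in their range. Counts leave out every stretch shared with another gene, which removes Kcnq1ot1, all hosted hairpins and 46.0% of Dleu2. All values are relative to the rest of a library: RNA per cell was not measured.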
